A study of Danio rerio with 17 samples.

Results

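Open chromatin regions that start within the first megabase of a zebrafish chromosome were examined in cranial neural crest cells, the embryonic cells that build much of the facial skeleton. The regions were found by merging the ATAC-seq peaks of 8 libraries wherever peaks overlapped by 1 bp or more, and keeping merged regions on chromosomes 1 to 25 whose start lay below base 1000000. This gave 761 regions, out of 21150 on the 25 chromosomes and 21650 when unplaced sequences were included. The rule used position only, so the number, width, strength and sharing of the peaks were free to differ from the other 20389 chromosome regions.

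All cells came from embryos at 48 hours post fertilization, dissociated in pools and sorted for the sox10:GFP reporter, in which the regulatory sequence of the crest gene sox10 drives green fluorescent protein. The reporter is shared by all groups, and the sorted cells are those it marks. A prdm3 set held 2 wild type and 2 prdm3-/- libraries, and a prdm16 set held 2 wild type and 2 prdm16-/- libraries. The labels do not say whether the 2 libraries of a group came from separate pools of embryos, so their spread may be technical. The prdm3 and prdm16 genes encode zinc finger proteins with a domain related to histone methyltransferases, and the study asked how their loss changes crest cells that give rise to cartilage.

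ATAC-seq uses a transposase that cuts DNA where nucleosomes are sparse, so peaks mark accessible sequence such as promoters and enhancers. Vertebrate chromosomes end in telomere repeats, and the sequence beside these is often rich in duplications. A position is given here by chromosome and base in the build danRer11, named in the submitters' processing notes. Regions were not assigned to genes, because no gene annotation of that build was used here. For the same reason the sorted cells were not checked at crest marker genes, and no sequence of a region is shown.

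Peaks were called by the authors separately in each library, and peak number differed widely. On the 25 chromosomes the prdm3 set wild type libraries held 13309 and 7912 peaks and the prdm3-/- libraries 17881 and 14781. The prdm16 set wild type libraries held 13750 and 6540 peaks and the prdm16-/- libraries 10374 and 6341. Read depth is unknown, and a missing peak can reflect it. Regions found in a single library made up 15.1% of the regions of prdm3-/- replicate 1 and 10.7% of those of prdm3 set wild type replicate 2, against 0.345% to 4.87% in the other 6 libraries.

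Open regions were denser in the first megabase than along the rest of the chromosomes. The 761 regions gave 30.4 regions per Mb, against 15.5 per Mb outside it, a 1.97-fold difference. The first megabases made up 1.86% of the length surveyed and 3.60% of the regions. Open sequence covered 2.39% of the first megabases and 1.19% of the remainder. Neighbouring regions started a median of 15720 bp apart in the first megabase and 28370 bp apart elsewhere. The end of the last region stood in for the length of each chromosome, so the density of the remainder is an upper limit and the fold a lower one.

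Each library showed this excess when its peaks were counted alone. The prdm3 set wild type libraries had 20.4 and 11.8 peaks per Mb in the first megabase, against 9.70 and 5.77 in the rest. The prdm3-/- libraries had 27.4 and 22.6 peaks per Mb in the first megabase, against 13.0 and 10.8. The prdm16 set wild type libraries had 21.8 and 11.6, against 10.01 and 4.74, and the prdm16-/- libraries had 16.7 and 11.1, against 7.55 and 4.60. No first megabase value fell below the value of the rest in the same library, whatever the genotype. The log2 ratio of the 2 densities was 1.14 ± 0.10 (SD, n = 8 libraries), or 2.20-fold, and was above 0 in 8 of 8 libraries. An exact sign-flip permutation test over libraries gave p = 0.00781, the smallest that 8 libraries allow, and 0.0104 after Benjamini-Hochberg adjustment over 4 measures. Libraries share a genome, so this p speaks to how alike the libraries are and not to other ways of placing regions.

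**Figure D1:**
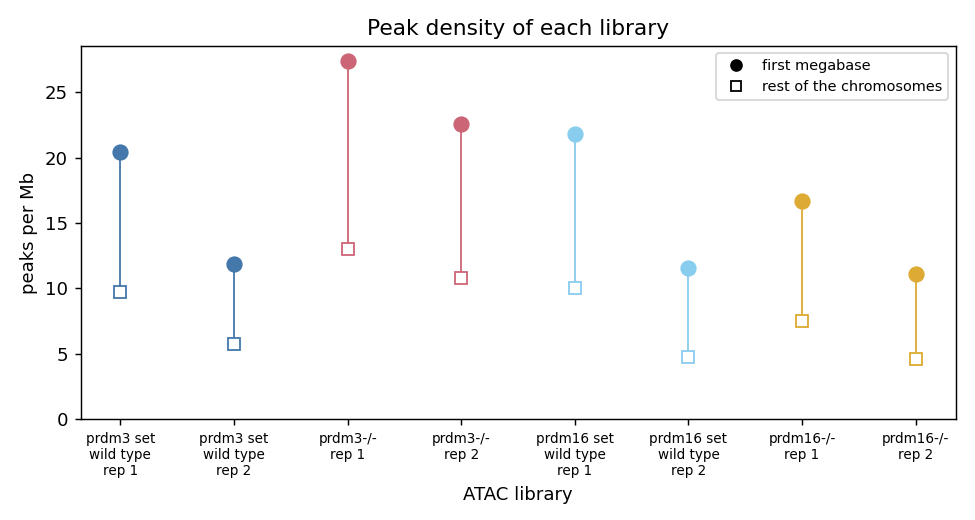
Peaks per Mb (vertical axis) in the first megabase (filled circles) and in the rest of the chromosomes (open squares) for each of the 8 ATAC libraries, coloured by group, with a line joining the values of a library. The first megabase lies above the rest in all 8 libraries, from 11.1 to 27.4 peaks per Mb against 4.60 to 13.0.

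As a share of a library's chromosome peaks, the first megabase held 3.84% in prdm3 set wild type replicate 1 (95% exact binomial interval 3.52% to 4.18%) and 3.74% in replicate 2 (3.33% to 4.18%). It held 3.83% (3.55% to 4.12%) and 3.82% (3.52% to 4.14%) in the prdm3-/- libraries. In the prdm16 set the shares were 3.97% (3.65% to 4.31%) and 4.42% (3.93% to 4.95%) in wild type. They were 4.03% (3.66% to 4.43%) and 4.38% (3.89% to 4.92%) in prdm16-/-. The 4 shares of the prdm3 set lay below the 4 of the prdm16 set without overlap, in wild type and mutant libraries alike, a pattern chosen after its values were seen, for which no test was made. The intervals of every pair of libraries overlap, and they cover counting error only.

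The excess was steepest next to the chromosome start. Over all 25 chromosomes, the first 100 kb held 157 regions (62.8 per Mb) and the second 100 kb held 109 (43.6 per Mb). The count was 72 between 400 and 500 kb and 46 between 900 and 1000 kb (18.4 per Mb). Density was thus lower with distance from the start, and near that of the interior at the end of the megabase. By library, the first 100 kb held 120 and 73 peaks in prdm3 set wild type, 143 and 119 in prdm3-/-, 114 and 74 in prdm16 set wild type and 99 and 74 in prdm16-/-. The last 100 kb of the megabase held 24 and 11, 39 and 27, 28 and 10, and 19 and 10 in the same order. The next megabase still had 17.9 regions per Mb, and each of the 8 that followed had between 13.0 and 15.5.

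The far ends of the chromosomes were dense as well. The last megabase, measured back from the end of the last region, held 763 regions or 30.5 per Mb, and its outermost 100 kb held 142. The log2 ratio of first to last megabase peak density was -0.07 ± 0.10 (SD, n = 8 libraries) and was above 0 in 2 of 8 libraries. An exact sign-flip permutation test, added after the values were seen, gave p = 0.0859, with a library range of -0.24 to 0.08. As the windows were placed by different rules, this test cannot decide whether the ends differ in density. Without both end megabases the chromosomes had 15.2 regions per Mb, and the first megabase was 2.01-fold above that.

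**Figure D2:**
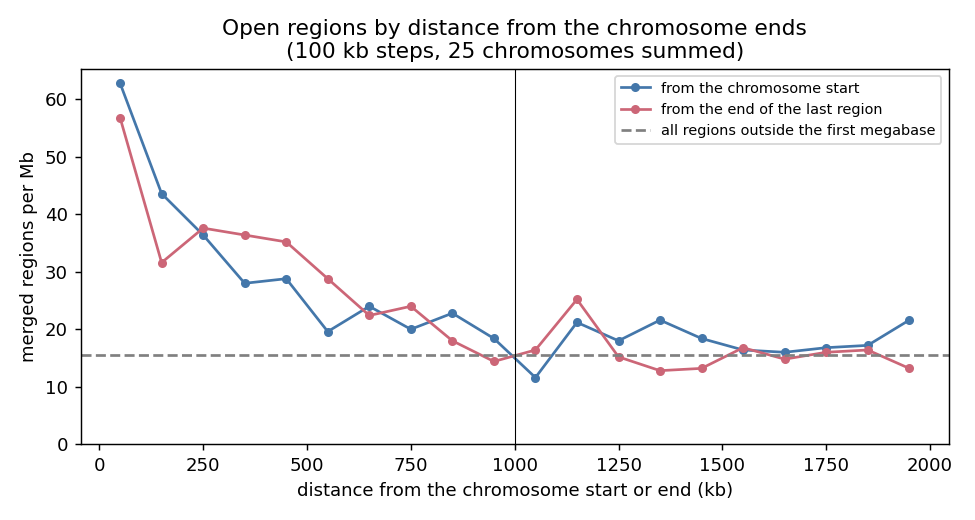
Merged regions per Mb (vertical axis) in steps of 100 kb by distance in kb from the chromosome start (blue) or from the end of the last region (red), summed over 25 chromosomes, with the density of all regions outside the first megabase as a dashed line. Both ends start high, at 62.8 and 56.8 regions per Mb, and come down toward the dashed line at 15.5 within the megabase marked by the vertical line. The red distances begin at a region by construction, so the heights of the ends are not strictly comparable.

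The chromosomes contributed unequally. The first megabase held a median of 28 regions per chromosome, and 23 of 25 chromosomes were denser there than in their remainder. The ratio ran from 0.900 to 3.58 with a median of 1.77, and 21 chromosomes had the excess in all 8 libraries. Chromosome 22 held most, 59 regions, or 3.58 times the density of its remainder, followed by chromosome 14 with 46 regions and 3.45 times. Chromosomes 4, 10 and 25 held 43 each, which on chromosomes 4 and 10 was 2.71 and 2.81 times the density of the remainder.

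On chromosome 22 the first megabase held 43 and 26 peaks in prdm3 set wild type, 55 and 46 in prdm3-/-, 45 and 28 in prdm16 set wild type and 37 and 24 in prdm16-/-. These numbers follow the order of total peak number except that prdm16 set wild type replicate 2 stands above prdm3 set wild type replicate 2, and mutants and wild types overlapped in the prdm16 set. Chromosome 14 gave 18 and 11, 42 and 26, 27 and 10, and 16 and 11 peaks in the same order. Both prdm3-/- libraries were above both wild types of their set on each of these chromosomes, as they were in peak number overall.

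The fewest regions were on chromosome 7 with 15, chromosome 3 with 16 and chromosome 16 with 20. On chromosomes 7 and 3 the first megabase was sparser than the remainder, at 0.929 and 0.900 times its density. Chromosome 3 was sparser in 6 of 8 libraries, with between 4 and 12 peaks per library. Chromosome 7 was denser in its first megabase in 6 of 8 libraries, although its merged regions were sparser there. These chromosomes had 48 and 36 regions in their last megabase, against 18 on chromosome 4 and 29 on chromosome 22. Across the 25 chromosomes the number in the first megabase had Pearson's r = -0.23 and Spearman's rho = -0.30 with the number in the last megabase, and -0.0037 and -0.11 with the density of the remainder. These describe chromosomes of the same libraries, and chromosomes are not replicates.

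**Figure D3:**
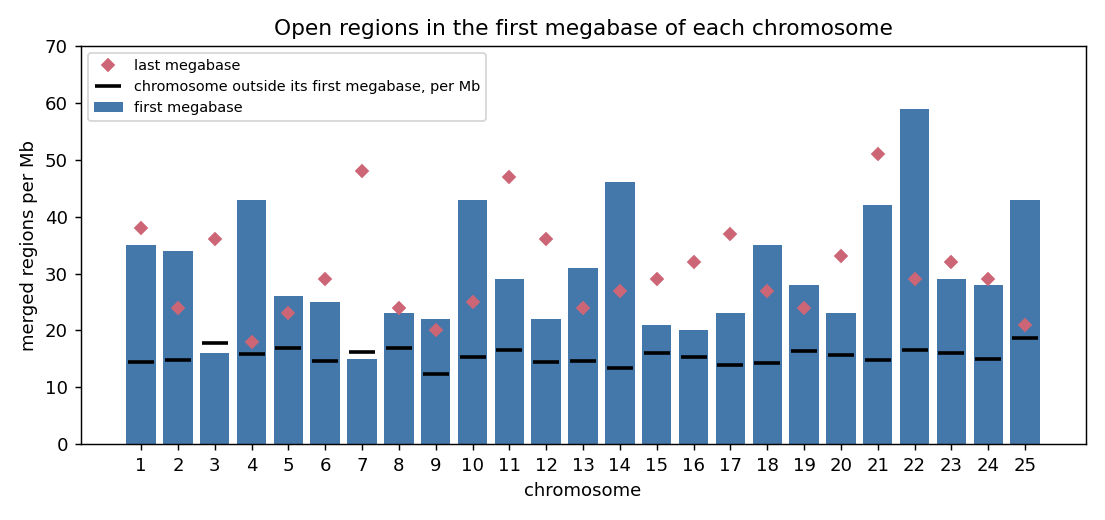
Merged regions in the first megabase (bars) and last megabase (red diamonds) of chromosomes 1 to 25, and regions per Mb over each chromosome outside its first megabase (black dashes). Bars range from 15 on chromosome 7 to 59 on chromosome 22, and only those of chromosomes 3 and 7 end below the dash.

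Regions of the first megabase were more often shared among libraries. A peak was present in all 8 libraries in 189 of the 761 regions (24.8%), against 3830 of 20389 elsewhere (18.8%). At the other extreme, 144 regions (18.9%) were found in 1 library, against 23.5% elsewhere, and 91 of those 144 (63.2%) came from prdm3-/- replicate 1, which also gave 52.6% of the single-library regions elsewhere. Regions of the first megabase were 4.70% of all regions shared by 8 libraries and 2.92% of those found in 1. The last megabase resembled it, with 207 of 763 regions (27.1%) in all 8 libraries. Within the first megabase, 53 of the 157 regions of its first 100 kb (33.8%) were in all 8 libraries, against 6 of 46 (13.0%) in its last 100 kb.

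By library, prdm3 set wild type had a peak in 64.9% and 36.9% of first megabase regions, against 59.8% and 35.5% of the others. The prdm3-/- libraries had a peak in 88.6% and 72.0%, against 81.9% and 67.0%. The prdm16 set wild type libraries had 69.8% and 36.1%, against 61.5% and 28.5%, and the prdm16-/- libraries 53.4% and 34.7%, against 46.6% and 27.2%. The difference averaged 6.05 ± 2.20 percentage points (SD, n = 8), was above 0 in 8 of 8 libraries and had an adjusted p of 0.0104 by the exact permutation test. The regions were merged from the peaks of these same libraries, so presence is independent neither of peak density nor between libraries. It was smallest, 1.39 points, in prdm3 set wild type replicate 2, and 5.05 or more in the other 7 libraries. The prdm16-/- differences, 6.76 and 7.44 points, did not overlap those of their wild types, 8.26 and 7.67, while the values of the prdm3 set did overlap. No test was made of this between genotypes, and 2 against 2 libraries without overlap cannot go below 0.333 in an exact permutation test.

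The peaks also ranked higher within their own library. The authors' peak caller gives each peak a −log10 p, which served to rank the peaks of a library from 0 to 100. It was also used as a cutoff in 1 alternative, picked the strongest peaks in another, and is printed for named regions. It was not adjusted here for depth or peak number, so printed values of different libraries are not on a common scale. In the prdm3 set the median rank of first megabase peaks was 55.5 and 59.5 in wild type and 55.2 and 58.4 in prdm3-/- libraries. In the prdm16 set it was 55.5 and 52.2 in wild type and 54.1 and 52.8 in prdm16-/- libraries. Peaks elsewhere had median ranks of 49.0 to 50.6. The difference averaged 5.63 ± 2.66 percentile points (SD, n = 8), was above 0 in 8 of 8 libraries and had an adjusted p of 0.0104 by the exact permutation test. The first megabase held between 0.914% and 4.16% of the 10% of a library's peaks with the lowest rank, and between 3.40% and 5.73% of the 10% with the highest. In 7 of 8 libraries the second share was the larger, and in prdm16-/- replicate 1 the shares were 4.14% and 3.94%. Against the first megabase share of all peaks, however, the share of the highest-ranked 10% was larger in 4 of 8 libraries, so an excess of the strongest peaks was not general. The last megabase had median ranks of 50.6 to 58.4, above the first megabase in 3 libraries, equal to it in 3 and below it in 2.

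**Figure D4:**
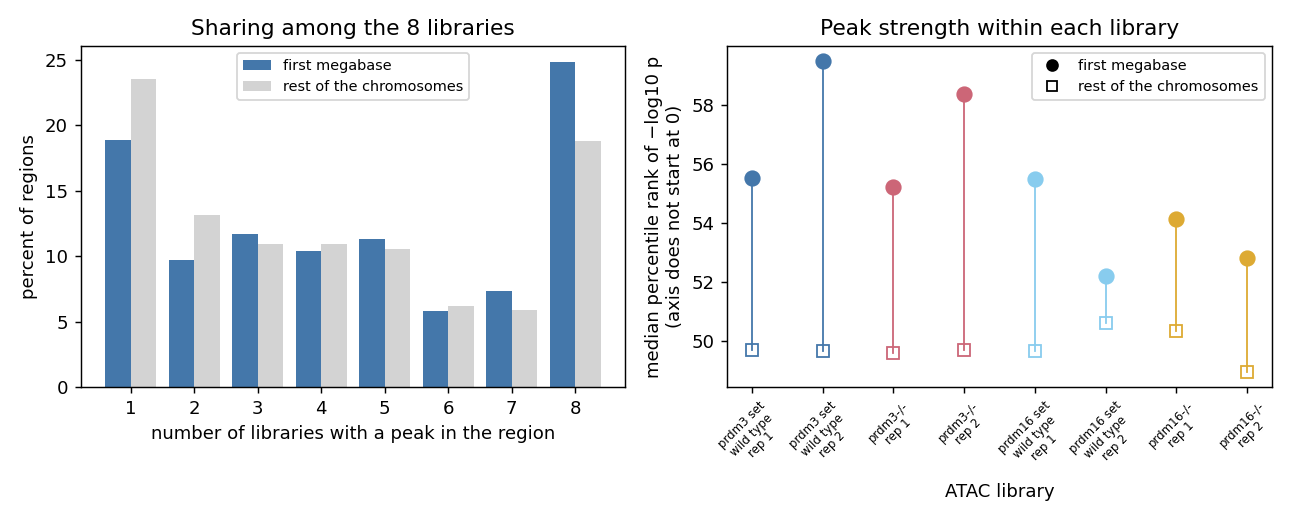
Left, percent of first megabase regions (blue) and of other chromosome regions (grey) by the number of libraries with a peak. Right, median percentile rank of −log10 p for first megabase peaks (filled circles) and other peaks (open squares) in each library, on an axis that does not start at 0. The blue bar at 8 libraries reaches 24.8% against 18.8%, and all 8 circles lie above their squares.

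Regions shared by all 8 libraries were wider and ranked higher than those found in 1, inside and outside the first megabase. Merging more peaks can itself widen a region. First megabase regions in 1 library had a median width of 453.5 bp and a median peak rank of 14.04, and those in all 8 libraries 1057 bp and 79.8. Elsewhere the values were 488 bp and 13.97 for regions in 1 library and 955 bp and 77.1 for regions in all 8. Regions in 1 to 5 libraries started at a median of 339 to 417 kb from the chromosome start, and those in 6 to 8 libraries at 229 to 252 kb.

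Merged regions of the first megabase were 129 to 18662 bp wide, with a median of 647 bp against 621 bp elsewhere. Peaks were wider in the first megabase in 7 of 8 libraries, by 17.1 ± 13.0 bp (SD, n = 8) with an adjusted p of 0.0156 by the exact permutation test. By library the difference in median width was 9 and -8.50 bp in prdm3 set wild type and 34.0 and 21.0 bp in prdm3-/- libraries. It was 22.5 and 13.0 bp in prdm16 set wild type and 28.0 and 17.5 bp in prdm16-/- libraries. The prdm3-/- values did not overlap those of their wild types, while the prdm16 set values did. Width was not tested between genotypes, and an exact permutation test of 2 against 2 libraries cannot go below 0.333 even without overlap. Width was the least stable of the 4 measures. Without the regions of the first 100 kb, a choice made after seeing the data, the difference was -7.94 bp and did not pass (adjusted p = 0.211, exact permutation test). Regions over 2000 bp were fewer in the first megabase, 9 of 761 (1.18%) against 508 of 20389 (2.49%).

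The widest region, on chromosome 5 at bases 818158 to 836819, was also the one with the highest rank in the library where it ranked lowest. Its highest −log10 p was 10.8 and 10.2 in prdm3 set wild type, 11.8 and 12.2 in prdm3-/-, 11.2 and 10.6 in prdm16 set wild type and 11.3 and 11.2 in prdm16-/- libraries. It ranked at the 98.7th percentile or above in all 8 libraries, and in all it joined 21 peaks. A neighbour 160 bp away, bases 814921 to 817997, ranked at 97.0 or above and was 3077 bp wide.

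Other strong regions lay at the very tips. On chromosome 7 a region of 10356 bp started at base 33 and was a single peak in each library, with −log10 p between 10.1 and 12.3. It exceeded the widest region in −log10 p in 6 of 8 libraries. On chromosome 10 a region of 1162 bp started at base 1. Its −log10 p was 9.33 and 10.1 in prdm3 set wild type and 7.49 and 7.65 in prdm3-/- libraries. In the prdm16 set it was 7.30 and 8.94 in wild type and 8.66 and 9.02 in prdm16-/- libraries. The rank within a library hardly differed, from 98.0 to 99.1 over all 8, and was 99.1 and 98.6 in prdm3 set wild type and 98.8 in both prdm3-/- libraries. In all, 6 regions started within 1000 bp of the chromosome start, on chromosomes 2, 7, 8, 10, 16 and 22. Of these, the regions on chromosomes 2, 7 and 10 were open in all 8 libraries.

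The remaining strongest shared regions were 753 to 1360 bp wide. The median was 647 bp over all first megabase regions and 1057 bp over those in all 8 libraries. They were on chromosome 22 at bases 833792 to 834544 and 785816 to 786906, on chromosome 17 at bases 956929 to 958035 and on chromosome 19 at bases 455218 to 456577. Their lowest rank in any library was between 93.8 and 94.9. Chromosome 22 also held the most regions open in all 8 libraries, 21 of its 59.

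At the boundary, the last 2 regions inside were on chromosome 12 at bases 998543 to 998842, with a peak in 1 library, and on chromosome 22 at bases 997507 to 998023, with a peak in 3. The first 2 outside were on chromosome 15 at bases 1003298 to 1003710, in 2 libraries, and on chromosome 17 at bases 1003466 to 1004266, in 5. Their ranks all lay between 8.17 and 51.6.

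The excess of peaks in the first megabase had overlapping values in mutants and wild types. In the prdm3 set the log2 density ratio was 1.08 and 1.04 in wild type and 1.07 and 1.07 in prdm3-/- libraries. The mutant mean was 0.01 higher (exact permutation test, p = 1, where 2 against 2 libraries cannot go below 0.333). In the prdm16 set it was 1.13 and 1.29 in wild type and 1.15 and 1.27 in prdm16-/- libraries, and the mutant mean was 0.0050 higher (exact permutation test, p = 1). Over all 4 mutant and 4 wild type libraries the means were 1.14 ± 0.10 and 1.13 ± 0.11 (SD), which differed by 0.0097 (exact permutation test, p = 0.829, with 0.0286 the smallest possible). The sign of each of these differences changed under other settings, with values between -0.11 and 0.10.

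Regions held by both libraries of a genotype and by neither of the other were counted in each set. In the prdm3 set, 99 of the 761 regions had a peak in both mutants and neither wild type, 13.0% (exact interval 10.7% to 15.6%), against 13.8% of all chromosome regions. The reverse, both wild types and neither mutant, held in 13 regions (1.71%, 0.913% to 2.90%), against 3.1% of all chromosome regions. In the prdm16 set, 0 regions had a peak in both mutants and neither wild type, against 0.217% of all chromosome regions. The exact interval was 0% to 0.484%, and a limit of 3 counts for a count of 0 allows a share of up to 0.394%. The reverse held in 6 (0.788%, 0.290% to 1.71%), against 0.435%. The interval for regions held by both prdm3 set wild types alone ended below its background share, and the other 3 intervals included theirs. These intervals count regions, not libraries, and cover counting error only, so they test no difference between genotypes. No first megabase region was held by all 4 mutants and no wild type, or by all 4 wild types and no mutant. By the limit of 3 counts, a count of 0 of 761 allows a share of up to 0.394%. The background for these patterns was 0.0142% and 0.00946%.

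The prdm3-/- libraries held more peaks than both wild types of their set, and how far peak number accounts for these counts was not tested. With the 6341 strongest peaks of each library, the prdm3 set gave 23 of 410 first megabase regions in mutants alone (5.61%, against 4.02% of all chromosome regions) and 10 in wild types alone (2.44%, against 3.94%). The prdm16 set gave 2 in mutants alone (0.488%, against 1.23%) and 2 in wild types alone (0.488%, against 1.44%). With equal peak numbers the first megabase regions also fell from 761 to 410. The mutant-alone share of the prdm3 set went from 13.0% (99 regions) to 5.61% (23 regions). The wild-type-alone share went from 1.71% (13 regions) to 2.44% (10 regions). Leaving out prdm3 set wild type replicate 1 raised the 99 to 287, and leaving out prdm3-/- replicate 2 raised it to 214. Leaving out either wild type of that set raised the 13 to 33 or 32, as 1 library then stood for a genotype. In the prdm16 set, leaving out wild type replicate 2 raised the 6 to 142 and leaving out mutant replicate 1 raised it to 41, and it was 10 without either other library. The 0 of prdm16 mutants alone became 25 and 3 without wild type replicates 1 and 2, and 6 and 21 without mutant replicates 1 and 2. Without a library the number of first megabase regions also changed, to between 678 and 760. The share over all chromosome regions was not computed for these fits. Their counts therefore cannot show whether the first megabase moved differently from other regions.

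**Figure D5:**
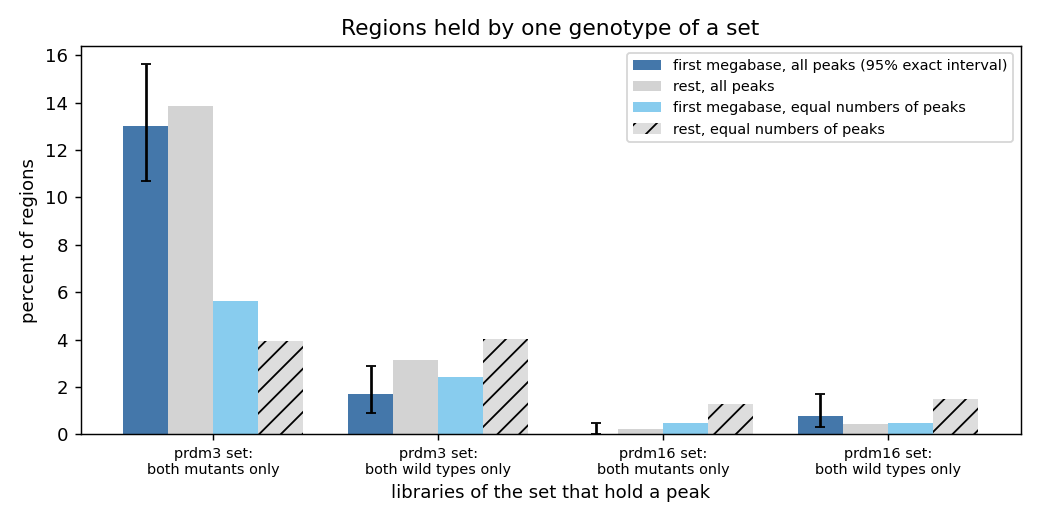
Percent of regions (vertical axis) with a peak in both libraries of a genotype and neither of the other in each set, for the first megabase with all peaks (dark blue, bars are 95% exact binomial intervals for counting error), the rest (grey), and both with the number of peaks made equal across libraries (light blue and hatched). The share held by prdm3 mutants alone is 13.0% against 13.8% with all peaks and 5.61% against 3.95% with equal numbers.

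Some of these regions also held peaks in the other set. Of the 99 regions of prdm3 mutants alone, 65 (65.7%) had a peak in a wild type library of the prdm16 set, against 60.4% of the same class over all chromosome regions. In a prdm16-/- library 24 (24.2%) had one, against 24.0% of that class. Of the 13 of prdm3 set wild types alone, 9 (69.2%) had a peak in a prdm16-/- library, against 37.7% of the class, and 7 (53.8%) in a wild type of the prdm16 set, against 31.9%. All 6 of the prdm16 set wild types alone had a peak in a prdm3-/- library, against 93.5% of the class, and all 6 in a wild type of the prdm3 set, against 92.4%. These shares rest on few regions and were not tested. The 99 regions were spread over 22 chromosomes. Chromosome 4 gave 12 of its 43 first megabase regions. Chromosomes 11, 14, 21 and 22 gave 7 each, of 29, 46, 42 and 59. The share was 13.0% over all first megabase regions and 13.8% over all chromosome regions. The 99 regions were weak, with a median lower rank of 20.01 in the first megabase and of 20.01 for the same class elsewhere.

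The strongest region of prdm3 mutants alone lay on chromosome 1 at bases 605288 to 605520. Its −log10 p was 4.98 and 4.93 in the prdm3-/- libraries, and the only other library with a peak was prdm16 set wild type replicate 1, at 4.12. The next, on chromosome 18 at bases 302405 to 302547, had 4.94 and 4.69, and 4.25 in the same wild type library. Both are narrow, at 233 and 143 bp, and each lay close to another region. On chromosome 1 that neighbour spanned bases 605685 to 606295 and had peaks in 6 libraries. On chromosome 18 it spanned bases 302750 to 303351 and had peaks in all 8. The counts by genotype were not repeated with such neighbours joined. The other two were on chromosome 4 at bases 359884 to 360396 and chromosome 9 at bases 295909 to 296576, with peaks in 5 and 4 libraries.

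The strongest region of prdm3 set wild types alone lay on chromosome 16 at bases 666016 to 666932, with −log10 p of 4.51 and 4.21. Peaks were also found there in prdm16 set wild type replicate 2, at 3.43, and prdm16-/- replicate 2, at 3.48. On chromosome 9 at bases 35871 to 36890 the values were 4.44 and 4.75, and all 4 libraries of the prdm16 set had a peak. The same held on chromosome 5 at bases 130364 to 130991, at 4.02 and 4.10. The last of these, on chromosome 4 at bases 51070 to 51541, had 3.98 and 3.52 and was found in no other library.

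Among the 6 regions of prdm16 set wild types alone, the strongest lay on chromosome 15 at bases 436615 to 437118, with −log10 p of 4.58 and 4.07. It had peaks in both prdm3-/- libraries, at 5.47 and 5.04, and in prdm3 set wild type replicate 1, at 5.14. A close neighbour at bases 436003 to 436508 had peaks in all 8 libraries. The next lay on chromosome 10 at bases 153508 to 153903, with 4.53 and 3.89 and a peak in all 4 libraries of the prdm3 set. It too had a close neighbour, at bases 154070 to 154695, with peaks in 5 libraries. The others named by rank were on chromosome 21 at bases 99925 to 100512 and chromosome 6 at bases 365729 to 366447. All 4 were thus open in 5 or 6 of the 8 libraries and missing from both prdm16-/- libraries, which held 10374 and 6341 peaks.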

How the data were processed

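Tagmented DNA of sorted cells was sequenced for 8 of the 17 samples, per the labels' protocols. The submitters' processing notes name cutadapt, Bowtie2 2.4.4, Genrich, bedtools 2.30.0 and danRer11, without roles. The authors deposited a peak list per library. Each deposited peak carries the authors' −log10 p, its area as a signal and a score computed from that area. Here only the −log10 p was used, within a library. How reads that fit several places were treated is not given in the sources used here.

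Peaks were merged across libraries in Python 3.11.15 with pandas 2.3.3, and a peak was assigned by the start of its merged region. Densities are peaks or regions per Mb. Chromosome length was taken as the end of the last region. Libraries were compared by exact sign-flip and exact permutation tests, two-sided. The code was tested on simulated data. Starts are printed counting from 1. The replicate numbers (1 and 2) are not stated to pair libraries. Named regions are those held by all 8 libraries with the highest lowest rank (8), up to 4 per set and direction with the highest lower rank, those next to the boundary, and the widest. Chromosomes named are the 3 with most and the 3 with fewest regions, and others were chosen after their values were seen. The members and these choices were made with earlier results of these data known. The 9 RNA samples were not used, because genes were not placed on the build of the peaks. The peak lists of all 8 libraries were used, but the area and score of the peaks entered no measure or test. Intervals and the limit of 3 counts cover counting error only. Alternatives are given in the closing section.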

Additional observations from a re-analysis of the deposited data

How the results depend on the processing

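Density, rank and presence in the first megabase against the rest kept their direction and stayed past the threshold in all 11 alternatives. They did so too in all 8 fits that left out a library. The differences in density and rank are taken within a library and were above 0 in all 8. Leaving 1 library out could therefore hardly change their direction or call. Merging peaks within 100 bp, or only at an overlap of 50 bp or more, left density, rank and width at their main values. Those measures are taken over peaks, and merging only places a peak by its region start. These merging settings could therefore hardly change them. The log2 density ratio ranged from 0.73 (start below 2000000) to 1.62 (start below 500000), and from 1.11 to 1.15 without a library. Rank ranged from 3.96 to 8.17 and from 5.03 to 6.20 points, and presence from 4.01 to 9.30 and from 5.44 to 6.26 points. The width difference ranged from 14.6 to 20.7 bp without a library. It turned to -7.12 bp with starts below 2000000 and to -7.94 bp without the regions of the first 100 kb, and the cause was not tested.

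The small genotype differences in log2 density ratio had no stable sign. With −log10 p of 3 or more they were -0.0479 (prdm3), -0.0030 (prdm16) and -0.0255 (all). With equal numbers of strongest peaks prdm16 gave -0.0573. With starts below 500000 they were -0.112 (prdm3) and -0.0365 (all), and with starts below 2000000 prdm16 gave -0.0373. Without chromosome 4 they were -0.0410 (prdm3) and -0.0109 (all), and with all 4 wild types prdm3 gave -0.0608. Without a library the ranges were -0.0050 to 0.0339 (prdm3), -0.0755 to 0.0855 (prdm16) and -0.0350 to 0.0616 (all). The replicate block gave 0.0144 (prdm3), 0.0050 (prdm16) and 0.0097 (all), which repeat the main values by construction. An exact sign-flip test on so few pairs could not pass the threshold, and with 2 pairs cannot go below 0.5. The block therefore could not change a call, and the replicate numbers are not stated to pair libraries.

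Of the presence shares, mutants alone in the prdm3 set moved to 5.61% with equal numbers, against 4.02% of all chromosome regions. With starts below 500000 that share was 10.2%, against 13.8% of all chromosome regions, and no interval was made for it. Mutants alone in the prdm16 set moved to 0.488% with equal numbers, against 1.23% of all chromosome regions. Without a library of the set, which lets 1 library stand for its genotype, the shares ranged from 13.6% to 38.1% and from 2.26% to 4.38% in the prdm3 set (mutants alone, wild types alone). In the prdm16 set they ranged from 0.395% to 3.32% and from 1.32% to 18.7%. The shares over all chromosome regions were not computed without a library. Leaving out the first 100 kb, chromosome 22, or chromosomes 5 and 7, and leaving out libraries for presence, were chosen after seeing the data. The share of first megabase genes in the RNA tables was not run. Read depth is unknown and limits every statement on a missing peak.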
